A study of Mus musculus with 8 samples.

Results

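The genes described here encode the 3 peroxisome proliferator-activated receptors, Pparg (PPARγ), Ppara (PPARα) and Ppard (PPARδ), and the coactivators PGC-1α (Ppargc1a) and PGC-1β (Ppargc1b). Open chromatin was measured by ATAC-seq, in which the Tn5 transposase inserts sequencing adapters into accessible DNA. By the labels and the study's text, the cells were alveolar macrophages (AMs) sorted from bronchoalveolar lavage of adult, 9-week-old mice of the C57BL/6J background. The study's main text calls the cells of both genotypes mature, but captions of its supplementary accessibility panels call the KO cells immature AMs. The 4 KO libraries came from Cd11cCre+ Rxrab fl/fl mice, in which Cre recombinase under the promoter of Cd11c (Itgax), a gene also used by dendritic cells, removes the floxed parts of Rxra and Rxrb, and the 4 WT libraries came from Rxrab fl/fl littermates without Cre, so that the floxed alleles were present in both groups. The labels and methods do not tell whether a library is 1 animal or pooled lavages, or whether 1_2 and 1_3 of a genotype share a source. The members of the set were all peaks that overlapped the 5 gene bodies or the 20 kb on either side in the mm10 genome with GENCODE M21 gene models, and peaks sharing at least 1 base across libraries were merged into 1 region. This gave 63 of the 82424 merged regions of the genome, of which 55 were consensus regions, called in 2 or more libraries, out of 72711 such regions in all. Pparg had 25 regions, Ppara 3, Ppard 15, Ppargc1a 4 and Ppargc1b 16.

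PPARs are nuclear receptors that bind fatty acids and their derivatives and attach to DNA as heterodimers with RXR, most often at a direct repeat of the half-site AGGTCA with 1 base between the copies (DR1). PPARγ is a lineage-determining factor of AMs, where it is induced by GM-CSF and controls lipid and surfactant handling, whereas PPARα and PPARδ are best known as regulators of fatty acid oxidation. PGC-1α and PGC-1β do not bind DNA themselves and raise the activity of PPARs and other factors at genes for mitochondria and fatty acid use.

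The libraries held 60363 to 72484 peaks, and the genome-wide background ranged from 1.12 (KO 3) to 2.26 (WT 1_3) tags per 200 bp. This background was also taken as the measure of library depth. A tag is a Tn5 cut extended to 200 bp, and the value given for each peak is the number of tags stacked at its summit, worked back from the fold enrichment and the p-value in the peak lists. Of the 8 AM markers, 7 had a promoter peak in all 8 libraries (Siglecf, Marco, Itgax, Mrc1, Car4, Mertk and Ear2), and Chil3 had none. No T cell, B cell or endothelial marker had a promoter peak in any library, nor did Ly6g (neutrophil) or Sftpc (alveolar epithelium). S100a8 (neutrophil), Epcam (epithelium) and the monocyte or interstitial macrophage markers Ly6c2 and Cx3cr1 had one in all 8, and Ccr2 had one in 1 library of each genotype. An intronic region of Rxra, one of the deleted genes (chr2:27744546-27744950), had 38, 46, 38 and 42 tags in the WT libraries and no peak in any KO library.

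The start sites of the 5 genes differed widely in openness. Peak strength is given as the percentile of a peak's −log10 p within its own library. The downstream start of Pparg (transcript Pparg-201, the start of the longer PPARγ2 form) lay in Pparg region 13 (chr6:115421638-115422174), where the percentile ran from 86.6 to 91.3. The start of Ppard in region 4 (chr17:28232402-28232932) was at 82.2 to 90.3, and these ranges overlapped. Next came the upstream start of Pparg in region 4 (chr6:115360715-115361992), at 66.9 to 74.6, and the start of Ppargc1b in region 14 (chr18:61400268-61400752), at 61.1 to 71.7, which again overlapped. At equal tags, −log10 p is lower where the local background is higher. That background was 3.16 to 4.46 times the genome's at Pparg region 4 and 8.95 to 11.5 times at Ppargc1b region 14. By mean tags their order turned, with 90.75 and 114.5. All other start regions were weak and were not seen in every library. Pparg region 5, at a cluster of alternative starts, ranged from 10.8 to 25.6, the start of Ppara from 0.075 to 25.3, and the start of Ppargc1a (Ppargc1a-203) from 0.20 to 15.9, and these 3 ranges overlapped. Some coding starts, such as those of Ppargc1a-202 and Ppard-206, lay in no region and are not ranked.

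**Figure D1:**
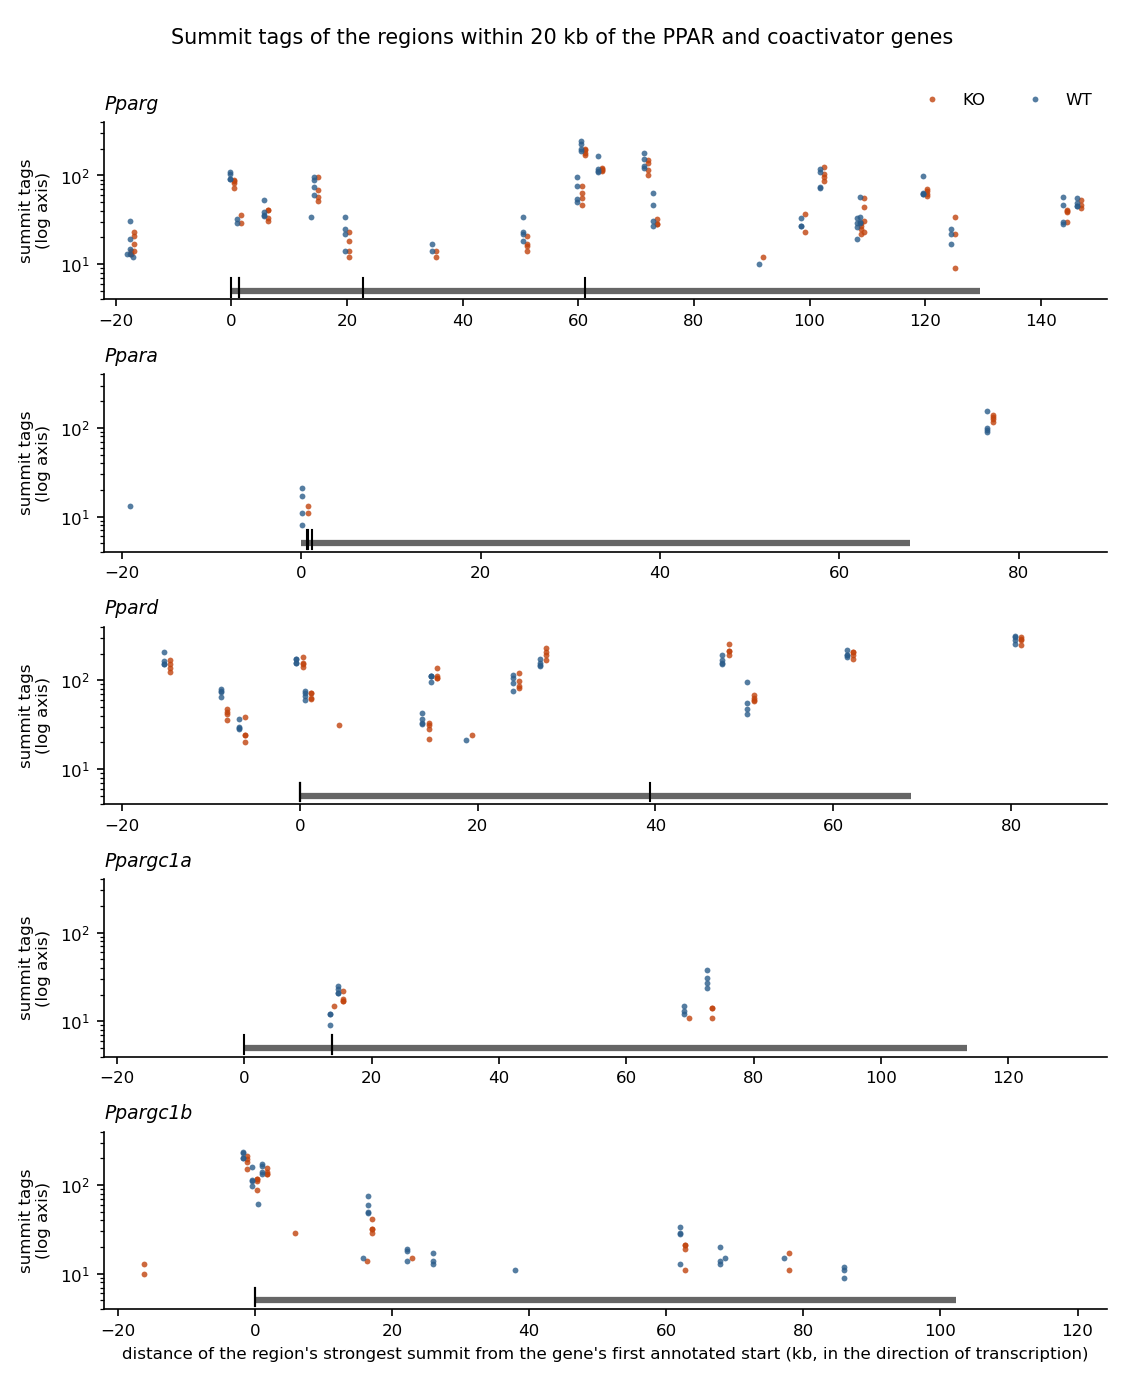
Summit tags (log axis) of each region with a peak, in each library (KO orange, drawn to the right of WT, blue), against the distance in kb of the region's strongest summit from the first annotated start of the gene, in the direction of transcription. Grey bars are gene bodies and black ticks are starts of coding transcripts; Pparg and Ppard carry strong regions along the gene body, Ppargc1b mainly near its start, and Ppara and Ppargc1a have only weak regions of their own, the strong region at the right of Ppara being the promoter of Cdpf1.

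The sequence before the downstream start of Pparg is shown because this was the strongest region of the gene in both genotypes. It is the RefSeq promoter entry (GRCm38.p6, chr6:115421816-115422065, plus strand), which was available for 4 of the 5 genes. Capitals mark matches to the C/EBP pattern TTGCNNAA, at positions near the summit and near the start, and to the RBPJ pattern TGGGAA, which reads on the minus strand.
Pparg downstream promoter: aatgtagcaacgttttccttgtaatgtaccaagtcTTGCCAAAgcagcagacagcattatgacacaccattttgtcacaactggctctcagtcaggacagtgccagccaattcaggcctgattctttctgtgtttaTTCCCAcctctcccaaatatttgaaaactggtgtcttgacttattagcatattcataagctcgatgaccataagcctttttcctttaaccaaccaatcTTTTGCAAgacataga

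Around this start, C/EBP matches were present in each of 5 neighbouring Pparg regions, and they are given below with 20 bases on each side, read on the strand of the match (GRCm38, capitals mark the match). This stretch was picked after its matches were seen. Within 100 bp of the summits, 7 of the 23 consensus regions of Pparg held the pattern, against 14.7% of all consensus regions, and a match is only a match of letters. The RBPJ pattern was in 8 of the 23, against 18.8% of all, so C/EBP was not the most frequent pattern at this gene.
Pparg region 11, chr6:115411688-115411735, minus strand: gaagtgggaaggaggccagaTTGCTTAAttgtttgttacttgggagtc
Pparg region 12, chr6:115421149-115421196, minus strand: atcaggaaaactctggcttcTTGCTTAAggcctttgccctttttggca
Pparg region 13, chr6:115421831-115421878, plus strand: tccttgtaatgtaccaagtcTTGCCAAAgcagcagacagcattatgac
Pparg region 14, chr6:115424646-115424693, minus strand: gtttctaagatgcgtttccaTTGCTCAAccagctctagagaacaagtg
Pparg region 15, chr6:115432698-115432745, plus strand: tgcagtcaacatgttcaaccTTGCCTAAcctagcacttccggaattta

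Whether loss of RXRs changed these regions was asked of the 35 member regions with a peak in all 8 libraries. Tags were compared as log2(tags + 0.5) after each library was centred on its median, with limma fitted over all 47499 such regions and an adjusted p (Benjamini-Hochberg) under 0.05 as the threshold. Of the 35, 2 were lower in KO, 4 were higher and 29 did not pass. Over all tested regions, 7.03% passed as lower and 5.81% as higher in KO, and nothing particular to these genes is read from 2 and 4 of 35. The median log2 difference was 0.09 over the 35 and 0.04 over all tested regions. When libraries were scaled by depth instead, taken as the genome-wide background, 2 members were lower and 2 higher, against 4.19% and 1.21% of all tested regions. Over the genome, lower calls went from 3337 to 1988 and higher calls from 2759 to 575, so that the share of calls that were lower in KO moved from 54.7% to 77.6%. In bulk material, openness in fewer cells and less openness in each cell cannot be told apart. Leaving out the 3 regions that hold the start of a neighbouring gene left 1 lower and 3 higher.

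**Figure D2:**
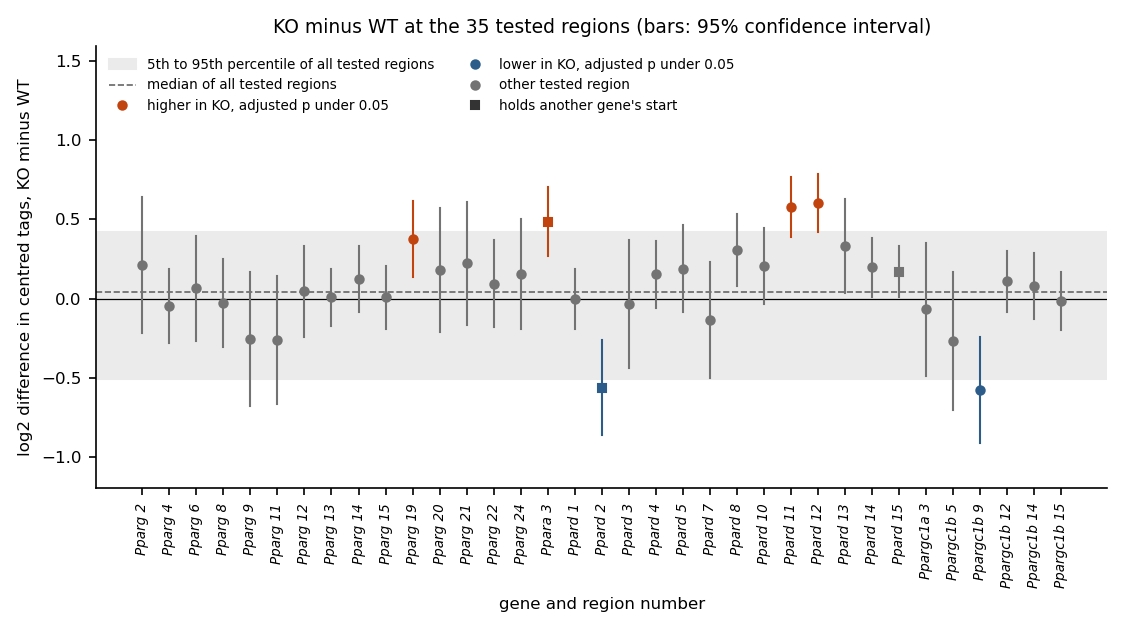
Log2 difference in centred tags, KO minus WT, with its 95% confidence interval, at the 35 tested regions, labelled by gene and region number in genome order. The shaded band is the 5th to 95th percentile of all 47499 tested regions (−0.51 to 0.42) and squares hold the start of another gene; 6 regions passed the test, and among regions without a neighbour's start the largest differences were at Ppard regions 11 and 12 (0.58 and 0.60) and Ppargc1b region 9 (−0.58).

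Pparg, the receptor that defines the AM lineage, was open at both promoters in each library of both genotypes. In region 13, at the downstream start, the KO libraries (1_2, 1_3, 2, 3) had 201, 193, 171 and 179 tags and the WT libraries (1_2, 1_3, 3, 4) had 188, 247, 227 and 200. The groups overlapped, and the difference on the centred log2 scale was 0.01 (95% interval −0.17 to 0.19, adjusted p = 0.97). In region 4, at the upstream start, the KO libraries had 83, 87, 88 and 72 tags and the WT libraries 92, 109, 103 and 92. After centring the groups overlapped there too, at −0.05 (−0.28 to 0.19, adjusted p = 0.83). Region 5, which holds the alternative starts, had a peak in 2 libraries of each genotype, with 36 and 29 tags in KO and 32 and 29 in WT. The background that the caller used there was 3.66 to 5.05 times that of the whole genome, so the missing peaks in the other 4 libraries do not stand for missing tags.

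A single region of Pparg passed the test. Pparg region 19 (chr6:115462851-115463349) has its summit in coding exon 6 of Pparg-202, 41.0 kb after the downstream start, and also lies within the body of the antisense gene Gm44079. The KO libraries had 96, 126, 104 and 86 tags and the WT libraries 72, 117, 108 and 75. On the centred log2 scale KO averaged 0.69 ± 0.19 (SD, n = 4) and WT 0.32 ± 0.21 (SD, n = 4), a difference of 0.38 ± 0.12 (SE, adjusted p = 0.027), with KO 1_2 below WT 3. This call was lost under depth scaling (adjusted p = 0.377), without KO 1_3 (0.145), without KO 2 (0.0684) and without WT 1_2 (0.157). Its summit window is shown because it is the one Pparg region called; capitals mark the RBPJ pattern and the AP-1 pattern TGANTCA.
Pparg region 19, GRCm38 chr6:115462995-115463195, plus strand: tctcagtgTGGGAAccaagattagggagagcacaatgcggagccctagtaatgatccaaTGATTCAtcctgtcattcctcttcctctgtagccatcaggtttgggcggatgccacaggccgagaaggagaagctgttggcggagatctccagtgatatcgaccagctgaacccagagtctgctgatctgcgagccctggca

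The other 14 tested Pparg regions ranged from −0.26 to 0.22 on the log2 scale and none passed. The lowest was region 11 (chr6:115411326-115411907, intron 2), with 16, 21, 14 and 17 tags in KO and 23, 34, 22 and 18 in WT, a difference of −0.26 (−0.67 to 0.14). The upstream region 1 (chr6:115343133-115343427) was the one Pparg region with a peak in at least 2 more KO than WT libraries. It had 13, 14 and 13 tags in 3 KO libraries and 13 in WT 1_3.

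Ppard, which is expressed in many cell types, had 2 intronic regions that were higher in KO. Both lie in intron 2 of Ppard-201. In region 11 (chr17:28259830-28260446), the KO libraries had 207, 233, 171 and 193 tags and the WT libraries 149, 172, 155 and 145. The centred means were 1.66 ± 0.13 in KO (SD, n = 4) against 1.08 ± 0.14 in WT (SD, n = 4), 1.49-fold apart, with a log2 difference of 0.58 ± 0.09 (SE, adjusted p = 1.26e-05). In region 12 (chr17:28280151-28280887), the KO libraries had 259, 213, 215 and 195 tags and the WT libraries 168, 193, 153 and 158. The difference was 0.60 ± 0.09 (SE), or 1.52-fold (adjusted p = 3.92e-06). The centred groups did not overlap in either region, and both passed under each of the 17 alternatives run, as did region 2 of Ppard.

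These windows of 201 bases around the summits are shown because these were the largest positive differences among the members. Region 11 held none of the 8 patterns searched, and capitals in region 12 mark an AP-1 pattern.
Ppard region 11, GRCm38 chr17:28259930-28260130, plus strand: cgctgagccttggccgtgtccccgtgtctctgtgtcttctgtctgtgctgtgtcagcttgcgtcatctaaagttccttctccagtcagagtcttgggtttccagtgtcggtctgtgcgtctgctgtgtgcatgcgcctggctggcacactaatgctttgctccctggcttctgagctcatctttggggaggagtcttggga
Ppard region 12, GRCm38 chr17:28280473-28280673, plus strand: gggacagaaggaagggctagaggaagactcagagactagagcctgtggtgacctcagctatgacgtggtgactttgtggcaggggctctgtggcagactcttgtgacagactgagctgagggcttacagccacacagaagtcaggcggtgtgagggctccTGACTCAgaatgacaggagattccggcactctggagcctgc

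The start of Ppard itself, in region 4, did not pass the test. The KO libraries had 184, 153, 156 and 143 tags and the WT libraries 158, 157, 173 and 173, and the difference was 0.15 (−0.06 to 0.37, adjusted p = 0.37). Region 15 (chr17:28313194-28313903) was the strongest region of the window, and it is the promoter of the neighbour Fance, a gene of the Fanconi anaemia pathway. There the KO libraries had 306, 291, 283 and 250 tags and the WT libraries 287, 315, 307 and 256, and the centred groups did not overlap while the difference, 0.17 (0.01 to 0.33), missed the threshold (adjusted p = 0.17). Of the 13 tested regions of Ppard, 9 (69.2%) had a positive difference under each of the 3 scalings, against 57.6% of all tested regions by median, 47.6% by depth and 54.2% by quantiles. Their median difference was 0.19, 0.13 and 0.15 under these scalings, against 0.04, −0.01 and 0.02 over all regions. The 13 include the Fance promoter. For Pparg, 73.3%, 53.3% and 60% of 15 tested regions were positive by median, depth and quantiles. Neighbouring regions are not independent, and nothing particular to Ppard is read from these shares.

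One region upstream of Ppard was lower in KO. Region 2 (chr17:28223654-28224451) lies at −8.48 kb from the Ppard start, inside the body of the neighbouring gene Def6 and over the start of the noncoding gene AC126937.1. The KO libraries had 42, 36, 44 and 48 tags and the WT libraries 73, 80, 75 and 64, so that every KO library was below every WT library. The difference was −0.56 ± 0.15 (SE), a ratio of 0.68 (adjusted p = 0.0078). Region 1 of the same window (chr17:28217569-28218830), also in Def6, had centred means of 1.20 in both groups (difference −0.00, −0.19 to 0.19), and region 3 between them and the Ppard start differed by −0.03. The window around the summit of region 2 held none of the patterns.
Ppard region 2, GRCm38 chr17:28224117-28224317, plus strand: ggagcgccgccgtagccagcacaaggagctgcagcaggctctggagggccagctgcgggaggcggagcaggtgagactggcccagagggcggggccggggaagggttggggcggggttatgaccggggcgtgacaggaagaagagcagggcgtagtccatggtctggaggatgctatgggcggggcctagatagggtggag

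**Figure D3:**
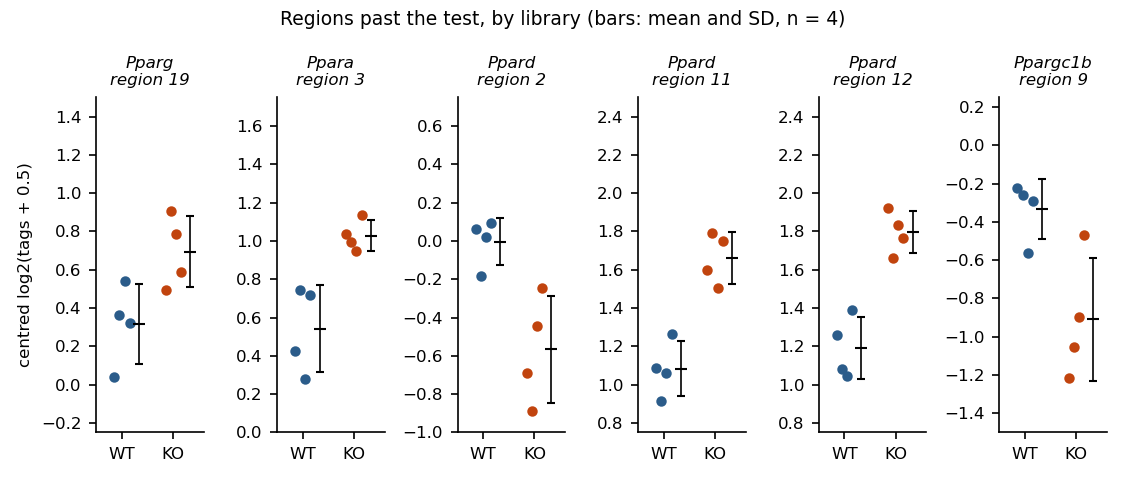
Centred log2(tags + 0.5) of each library (points) at the 6 regions that passed the test, with the mean and SD of each genotype (n = 4); each panel spans the same height in log2 units. The groups are apart at Ppara region 3 and Ppard regions 2, 11 and 12, and they overlap at Pparg region 19 and Ppargc1b region 9.

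Ppara, a main regulator of fatty acid oxidation in liver, had little open chromatin of its own in these cells. Its start region 2 (chr15:85735060-85735739) had a peak in 2 KO libraries, with 11 and 13 tags, and in 4 WT libraries, with 17, 21, 11 and 8. Region 1, at −19.3 kb from the start, was seen only in WT 3, with 13 tags. The remaining region in its window, region 3 (chr15:85811191-85812004), is the promoter of Cdpf1 beyond the 3′ end. It was higher in KO, with 140, 134, 116 and 126 tags against 94, 153, 90 and 99 in WT and a difference of 0.49 ± 0.11 (SE, adjusted p = 0.0014). The raw tags overlapped and the centred values did not. Under depth scaling the call was lost (0.43, adjusted p = 0.12).

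Ppargc1a, the PGC-1α gene, had 4 weak regions. Of these, regions 2 and 4, with 9 to 15 tags, had a peak in at least 2 more WT than KO libraries. Such an excess was found in 9.96% of all consensus regions, and nothing is read from 2 regions. Region 1 (chr5:51494494-51494886) has its summit in coding exon 5 of Ppargc1a-203. It had 14, 11 and 14 tags in KO 1_2, KO 2 and KO 3, no peak in KO 1_3, and 27, 31, 38 and 24 tags in the WT libraries, so every KO value was below every WT value. It stayed out of the main fit for the missing peak. With KO 1_3 dropped, the difference was −0.93 ± 0.22 (SE, adjusted p = 0.0028), and with KO 1_3 set to the smallest summit of its list it was −1.10 ± 0.24 (SE, adjusted p = 0.0091). The latter fit took regions with a peak in all libraries of 1 genotype, and this region entered through WT. Its filled KO value was low by construction, so that adjusted p is not read as support for a difference. Region 2 (chr5:51498180-51498464, intron 2) had 11 tags in KO 2 and 15, 13 and 12 in 3 WT libraries. The start region 4 (chr5:51553803-51554082) had 15 tags in KO 1_3 and 12, 9 and 12 in 3 WT libraries. Region 3 (chr5:51552151-51552848, intron 1) was the one region tested, with 17, 18, 17 and 22 tags in KO and 25, 21, 21 and 23 in WT, and it did not pass (−0.07, −0.49 to 0.35). The window of region 1 is shown for its step between genotypes, and it held none of the patterns.
Ppargc1a region 1, GRCm38 chr5:51494593-51494793, plus strand (the gene is on the minus strand): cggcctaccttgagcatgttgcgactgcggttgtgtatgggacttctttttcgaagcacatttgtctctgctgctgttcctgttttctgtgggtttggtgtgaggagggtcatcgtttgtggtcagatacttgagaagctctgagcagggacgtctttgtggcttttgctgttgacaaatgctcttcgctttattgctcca

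Ppargc1b, the PGC-1β gene, kept an open start in both genotypes and lost tags at 1 intronic region. Region 9 (chr18:61383406-61383957, intron 1, 16.8 kb after the start) had 29, 32, 32 and 41 tags in KO and 60, 76, 50 and 49 in WT. KO averaged −0.91 ± 0.32 (SD, n = 4) after centring and WT averaged −0.33 ± 0.15 (SD, n = 4). The difference was −0.58 ± 0.17 (SE), a ratio of 0.67 (adjusted p = 0.015), with KO 3 above WT 3 after centring. The call was lost without KO 1_2 (−0.48, adjusted p = 0.0683) and with 1_2 and 1_3 of each genotype as 1 sample (−0.47, adjusted p = 0.0957). At the start, region 14 had 117, 118, 110 and 89 tags in KO and 110, 160, 115 and 97 in WT (0.08, −0.13 to 0.29). Region 15 (chr18:61401650-61402076), at −1.45 kb from the start, was the strongest of the gene, with 199, 213, 183 and 153 tags in KO and 200, 239, 232 and 202 in WT (−0.02, −0.20 to 0.17). Region 5 (chr18:61337741-61338336) had 21, 19, 21 and 11 tags in KO and 28, 34, 29 and 13 in WT, and its difference of −0.27 did not pass (−0.70 to 0.17).

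Among weak intronic regions of Ppargc1b, 4 had a peak in at least 2 more WT than KO libraries, an excess found in 9.96% of all consensus regions, and region 16 upstream had the opposite excess, found in 4.02%. Region 1 (chr18:61314007-61314278), region 4 (chr18:61332036-61332441) and region 7 (chr18:61373923-61374253) each had a peak in 3 WT and 0 KO libraries. Their tags were 11, 12 and 9 in region 1, 13, 20 and 14 in region 4 and 13, 17 and 14 in region 7. Region 2 (chr18:61322733-61323040), in contrast, had 17 and 11 tags in KO 1_2 and KO 3 and 15 in WT 1_3, and region 11 (chr18:61394841-61395075) had 29 tags in KO 1_3 alone. Region 8 (chr18:61377696-61378063) had 15 tags in KO 1_3 and 19, 18 and 14 in 3 WT libraries. Region 16 (chr18:61416799-61417016), at −16.5 kb from the start, was seen in 2 KO libraries, with 13 and 10 tags, and in 0 WT libraries. The smallest summit in each list was between 6 and 9 tags.

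No member region was called in 4 libraries of either genotype and 0 of the other, against 0.82% (WT only) and 0.285% (KO only) of the consensus regions. Of the 55 consensus member regions, 7 had a peak in at least 2 more WT than KO libraries, against 9.96% of consensus regions, and 2 in at least 2 more KO than WT libraries, against 4.02%. The centred values of the groups did not overlap in 1 tested member with lower and 4 with higher KO values, against 7.91% and 8.25% of all tested regions. Of the 8 regions seen in a single library, 5 were seen in WT 1_3, the library of greatest depth by its background tags and of most peaks. One of these, Ppargc1b region 13 (chr18:61399466-61399668), had 62 tags where the local background was 10.4 times that of the genome, so that a missing peak in the other libraries does not stand for few tags. The 20 regions seen in 2 to 7 libraries had 8 to 63 tags.

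**Figure D4:**
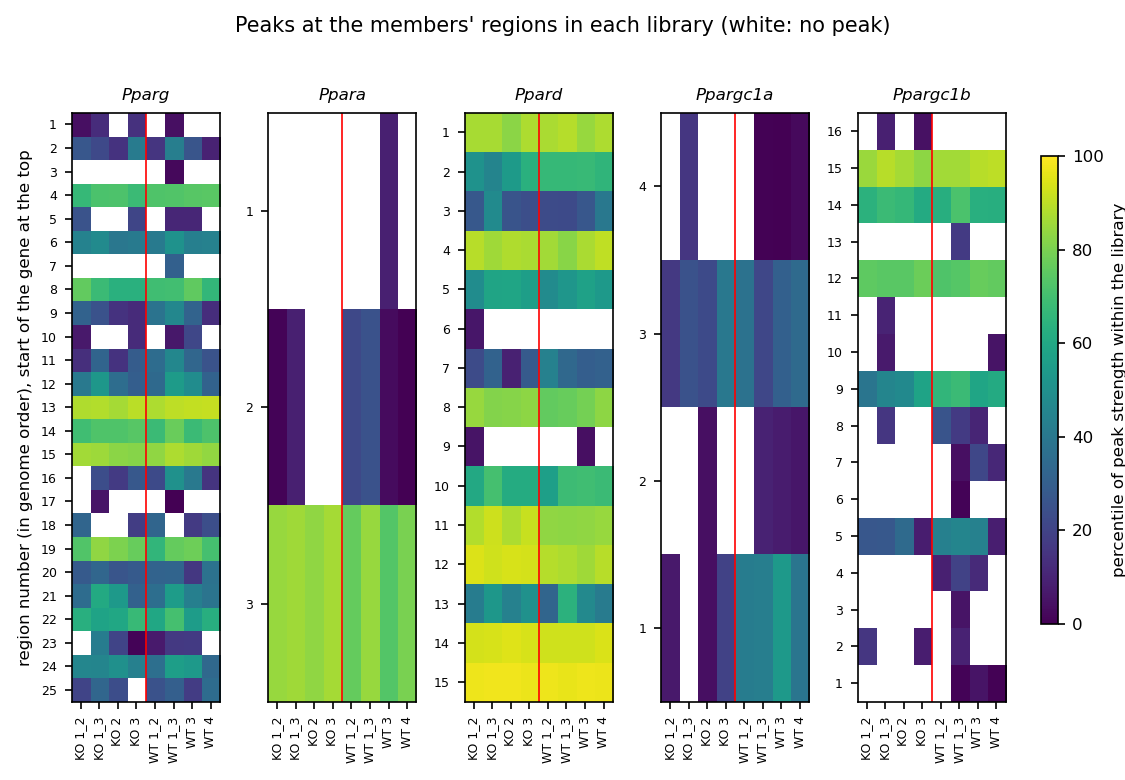
Percentile of peak strength within the library (colour) for each region (rows, with the start of the gene at the top) in each library (columns, KO to the left and WT to the right of the red line); white means no peak. Rows filled across all 8 columns are the 35 tested regions, and the white cells lie mostly in rows of low percentile.

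Peaks were also counted per window. Pparg had 22, 21, 19 and 23 peaks in KO and 20, 25, 22 and 21 in WT (exact permutation p = 0.74, two-sided, as below). Ppargc1a had 2, 2, 3 and 2 in KO and 2, 5, 4 and 4 in WT, a difference of means of −1.5 (exact permutation p = 0.14). Ppargc1b had 6, 9, 5 and 7 in KO and 7, 13, 9 and 8 in WT, a difference of −2.50 (exact permutation p = 0.23). Ppara had 1.5 ± 0.58 in KO and 2.25 ± 0.50 in WT (SD, n = 4, exact permutation p = 0.29), and Ppard 13.5 ± 1.0 and 13.5 ± 0.58 (exact permutation p = 1). The smallest p that 70 labelings allow is 0.029, and these p-values are not adjusted over the 5 genes. The counts of the 2 genotypes overlapped in each window. Over 17595 windows of protein-coding genes with any peak, the counts did not overlap with fewer in KO in 2.05% and with more in KO in 0.341%.

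**Figure D5:**
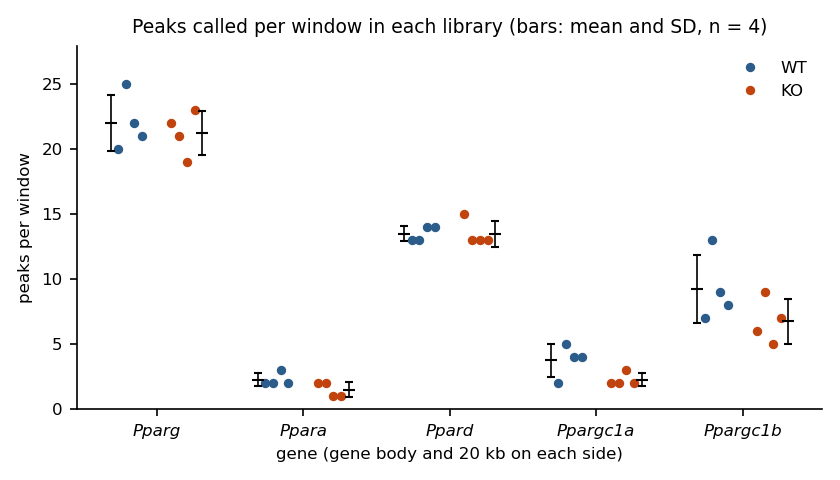
Number of peaks called in each library (points) within the gene body and 20 kb on each side, with the mean and SD of each genotype (n = 4). The genotypes overlap for each of the 5 genes; the widest gap is at Ppargc1b, with a mean of 9.25 in WT and 6.75 in KO.

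At the limit of the windows, values were given for the regions just inside and just outside 20 kb. For Pparg, the last region inside, 17.0 kb beyond the gene, had 46, 53 and 43 tags in KO and 45, 56, 45 and 49 in WT, and the first outside, at 20.99 kb, had 224, 216, 181 and 214 in KO and 191, 229, 241 and 161 in WT. On the other side, region 1 lay inside at 17.5 kb and the next was 29.6 kb away, with 11 and 14 tags in KO and 10 and 11 in WT. For Ppard, the nearest outside regions were at 22.8 and 26.5 kb, with 92 to 129 and 104 to 160 tags over the 8 libraries. Ppara had outside regions at 24.5 kb (14 tags in KO 2) and 29.1 kb (86 to 116 tags). Ppargc1b had them at 30.8 kb (14 tags in KO 1_3, 11 and 21 in WT 1_2 and WT 1_3) and 41.7 kb (14 tags in WT 3). Ppargc1a lay alone, with the nearest regions outside its gene 321 and 497 kb away.

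DNA patterns were searched on both strands within 100 bp of the summits of the 55 consensus regions, each pattern on its own so that matches may overlap. DR1 (AGGTCANAGGTCA) and DR4 (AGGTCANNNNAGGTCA, the spacing used by LXR with RXR) were allowed 2 mismatches. No member region held DR1, which 4.13% of all consensus regions held, and 1 held DR4 (Pparg region 22, in intron 7), against 2.62%. The other patterns are given as member regions, with their share of the 55 and then the share of all consensus regions. C/EBP was found in 9 (16.4% against 14.7%), RBPJ in 13 (23.6% against 18.8%) and AP-1 in 8 (14.5% against 11.9%). PU.1 (GAGGAAGT) was in 5 (9.09% against 10.7%), RUNX (TGTGGTT) in 4 (7.27% against 8.99%) and STAT5 (TTCNNNGAA) in 2 (3.64% against 6.01%). Of the 6 called regions, 2 held AP-1 and 1 of these also RBPJ.

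By likeness over the 8 libraries, the promoters most similar to the downstream Pparg promoter in centred log2 tags were those of Pmf1 (Pearson r = 0.97), Timm29 and Yipf2 (both 0.97, sharing 1 promoter region). For Ppard they were Ift46 (0.99), March2 (0.98) and B4galt5 (0.98), and for Ppargc1b Wdr5, Anapc7 and Fbl (0.96 each). Among 11056 promoters, 33 reached an r over 0.9 with Pparg, 252 with Ppard and 20 with Ppargc1b. The highest of so many correlations over 8 points are high by selection alone. No chance level was computed, so no link between the named genes is read from them. The points share library depth and composition, and Ppara and Ppargc1a had no start region in all 8 libraries.

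Other genes of the pathway were described with the same fit. The lists were not trimmed by how their regions moved, but they were chosen with earlier results of these data known. The PPAR target list also holds genes, such as Cidec and Fabp1, whose RNA the study reported as lower in KO AMs. Its counts are therefore no independent evidence. The 3 RXR genes had 22 tested regions within 20 kb, of which 0 were lower and 1 was higher in KO, against 7.03% and 5.81% of all tested regions. The fit leaves out the Rxra region seen in WT only, which lacks a peak in every KO library. The 16 coregulator genes had 107, with 9 lower (8.41%) and 6 higher (5.61%), near the shares over all regions. The 24 PPAR target genes had 149, with 24 lower (16.1%) and 5 higher (3.36%), a median difference of −0.10 against 0.04 over all regions, and 12 lower and 3 higher under depth scaling, where 4.19% of all regions were lower and 1.21% higher. Plin2 (a lipid droplet coat protein) had 3 of 10 tested regions lower, Angptl4 (an inhibitor of lipoprotein lipase) 3 of 7, Lpl (lipoprotein lipase) 3 of 6 and Cidec (a lipid droplet protein) 3 of 7. Higher regions were seen at Adipoq (adiponectin), with 3 of 4 higher, and at Acadm (medium-chain acyl-CoA dehydrogenase), with 2 of 4 higher.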

How the data were processed

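The deposited files are 8 peak lists, 1 per library. Per the labels and the study's methods, the authors used Cutadapt for adapter trimming and Bowtie2 for alignment to mm10, kept properly paired, non-duplicate alignments and called peaks per library with MACS3 (q of 0.05, tags of 200 bp). The deposited values are the fold enrichment, a ratio, and −log10 p and −log10 q at the summit, with a display score and the summit offset, and no reads were used here. From the fold and −log10 p, the whole number of summit tags and the local background were solved for each peak; 100% came out whole within a relative error of 1e-05. limma 3.58.1 (R 4.3.3, trended) was run on log2(tags + 0.5), median-centred, and checked on simulated data. Window counts used exact permutation tests over 70 labelings. p-values measure the spread between these libraries only, and counting intervals were not used. Members and lists were chosen with earlier results of these data known. Named were regions at a member's start, past the test, differing by 2 or more libraries, strongest per gene, the 2 largest differences per gene and those at the 20 kb limit. Motifs used 100 bp flanks. Alternatives covered scaling, pseudocount (5), peak threshold (−log10 q of at least 5), merging (100 bp), variance prior, missing peaks, replicates and single libraries.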

Additional observations from a re-analysis of the deposited data

Results flagged for a closer look

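In groups of 4, the gap of the most extreme library to its nearest neighbour was divided by the range of the group, and values above the 95% critical value of Dixon's test are listed. For continuous values chance alone gives about 1 in 20 groups, and 42 groups were checked. That rate does not hold for peak counts per window, which are small whole numbers with many ties. At Ppargc1b region 5, WT 4 stood below the other WT libraries (ratio 0.88, centred log2 tags −2.16). Peak counts per window stood apart with a ratio of 1 each, since the other 3 libraries were tied, for WT 3 at Ppara (3 peaks), KO 1_2 at Ppard (15 peaks) and KO 2 at Ppargc1a (3 peaks).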

How the results depend on the processing

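The member counts of 2 lower and 4 higher in KO became 2 lower and 2 higher under depth scaling (4.19% and 1.21% of all tested regions). With the mean of 1_2 and 1_3 as 1 sample they were 1 lower and 3 higher (5.87% and 4.51% of all). Leaving out the starts of other genes, chosen after seeing the data, gave 1 lower and 3 higher. Leaving out 1 library at a time gave 1 to 3 lower and 3 to 6 higher, against 5.48% to 6.62% and 3.69% to 6.57% of all tested regions. With the replicate block the counts were 2 lower and 5 higher (3283 and 3600 over all regions), the added region being Ppard region 8 (0.44, limma adjusted p = 0.00493). Same-numbered libraries correlated at 0.056 (1_2), 0.116 (1_3) and 0.037 (3), so the numbers were not taken as pairs, although each of these 6 correlated best with its own number. When 1 library could depart, regions with a peak in WT only numbered 3 (3.46% of all consensus regions) and those in KO only 0 (1.20% of all). With a library left out they numbered 0 to 2 in WT only and 0 in KO only. The share over all regions was not computed for this setting, and nothing is read from these counts.

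The calls lost were Pparg region 19 (also without the variance trend, adjusted p = 0.104, and with 1_2 and 1_3 as 1 sample, 0.0772), Ppara region 3 under depth scaling and Ppargc1b region 9 (0.0957 with 1_2 and 1_3 as 1 sample). Ppard regions 13 (0.0363 without WT 1_3) and 14 (0.0322 without WT 4) gained one, as did region 8 without WT 4 (0.00887).

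Under depth scaling the tested members with a negative difference went from 12 to 15, those of Pparg from 4 to 7. Of the regions given with values in every library, signs turned, never past the test, at Pparg region 13 (depth −0.0487, quantiles −0.0391, pseudocount −0.001183, stricter peaks −0.000799, 1_2 and 1_3 as 1 sample −0.0276, libraries left out −0.0453 to 0.0634), Ppard region 1 (missing peaks at the floor 0.0143, replicate block 0.0930, libraries left out −0.0633 to 0.0654), Ppargc1b region 15 (floor 0.003273, block 0.0274, left out −0.0704 to 0.0389), Ppargc1a region 3 (block 0.0532, left out −0.20 to 0.0346) and Pparg region 4 (left out −0.10 to 0.00705). The Pparg window difference turned to 0.25 with lists of equal length and ran from −1.42 to 0.25 with a library left out. The left-out ranges were −2.08 to −1.08 for Ppargc1a (exact permutation p = 0.029 without WT 1_2) and −0.917 to −0.50 for Ppara. They were −0.50 to 0.167 for Ppard and −3.25 to −1.25 for Ppargc1b. Holding every list to 60363 peaks gave −0.25 for Ppargc1a, against −1.5 in the main setting, and −1.25 for Ppargc1b, against −2.5. Ppara moved from −0.75 to −0.25 and Ppard from 0 to 0.25. With 50 bp flanks, STAT5 was in 1 member region, RBPJ in 6 and AP-1 in 4, and with at most 1 mismatch DR4 was in 0. The causes were not tested. A region without a peak is one below the caller's threshold, and summit tags are not reads over the whole region. Small differences at weak regions may have been missed, and no detection limit is given for them.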
